A study of Solanum lycopersicum with 26 samples.

Results

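The 10 genes described here encode the gibberellin (GA) oxidases that make and inactivate the hormone in tomato. They are GA20ox1 (Solyc03g006880), GA20ox2 (Solyc06g035530), GA20ox3 (Solyc11g072310) and GA20ox4 (Solyc01g093980), GA3ox1 (Solyc06g066820) and GA3ox2 (Solyc03g119910), and GA2ox1 (Solyc05g053340), GA2ox2 (Solyc07g056670), GA2ox4 (Solyc07g061720) and GA2ox5 (Solyc07g061730). They were chosen by their identifiers from the 33976 genes of the count table. Each of the 10 members was assigned a RefSeq symbol by name, 3OH-2 for GA3ox2, and all 10 symbols lay on the chromosome that the identifier gives. Of the identifiers in the count table, 0 matched a RefSeq locus tag or synonym, so the link rests on name and chromosome alone. RefSeq gives the synonym SlGA3ox1 to GA3ox1 and to 3OH-2 alike, so for these genes the identifier is the safer name.

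RNA was sequenced from hand-dissected embryo and endosperm of mature Solanum lycopersicum cv. Moneymaker seeds at 70 days after flowering. The fruits had been cut at the breaker stage, 63 days after flowering, and ripened off the plant for 7 days. ST_HL, the standard condition, combined 23 °C by day and 20 °C by night with high light of 300 µE, and ST_DL combined the same temperatures with dim light of 25 µE. HT_HL and HT_DL combined 32 °C by day and 26 °C by night with high light or dim light, and the photoperiod was 16 h in all 4 conditions. There were 4 libraries each of ST_HL embryo and HT_DL embryo and 3 of each of the other 6 groups, 26 in all, and each came from 10 seeds. The methods give 3 replicates, each with seeds from different fruits, but the labels do not say whether the replicates came from different plants, so p-values measure the spread between these libraries. Nor do the labels say whether embryo and endosperm libraries of the same number came from the same seeds, and the main fits used no pairing.

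Gibberellins are diterpenoid hormones. GA 20-oxidases carry out the successive oxidations that lead to the direct precursors of the active hormones, GA 3-oxidases turn these precursors into active gibberellins, and GA 2-oxidases inactivate active forms or their precursors. In tomato, gibberellin is needed for germination, and it is known for promoting both growth of the embryo and weakening of the endosperm that encloses the radicle tip.

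Total counts lay between 20450644 and 21519318 per library, so 3 counts, the floor used here, corresponded to between 0.119 and 0.164 CPM (the usual unit of counts scaled to library size, here after TMM adjustment of the library sizes). All libraries separated by tissue on the first principal component of 21146 genes other than the members, which held 65.6% of the variance, with embryo scores from 103 to 125 and endosperm scores from -143 to -128. No list of tissue markers could be tied to the identifiers, so the purity of the dissected tissues was not checked. Within the embryo, replicates 2 and 3 of ST_HL and of HT_DL stood apart. On the first component of the embryo libraries (63.7% of the variance of 19249 other genes) these 4 libraries had scores between 117 and 125, and the other 10 between -65.4 and -25.7. Results that rest on these 4 libraries are given with and without them.

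The members fell into 6 with 376 counts or more and 4 with 80 or fewer. Summed over all libraries, GA20ox2 had 3665 counts, GA20ox3 1418, GA2ox4 779, GA2ox2 753, GA3ox2 600 and GA20ox1 376. GA2ox1 had 80 counts, GA2ox5 73, GA3ox1 19 and GA20ox4 2. Counts were not scaled to transcript length, so these totals show how many counts stand behind each member, and levels are not compared between genes. After the filter on low counts, 4 members were tested in the embryo (GA20ox1, GA20ox2, GA3ox2 and GA2ox4), 6 in the endosperm (GA20ox2, GA20ox3, GA3ox2, GA2ox1, GA2ox2 and GA2ox4) and 7 in the fit of all libraries (these and GA20ox1). In the embryo, GA20ox1, GA3ox2 and GA2ox4 passed the filter through a few high libraries, and only GA20ox2 passed it when the 4 libraries that stood apart were left out. In the fit of all libraries, GA20ox3, GA2ox1 and GA2ox2 passed only through endosperm libraries and GA20ox1 only through embryo libraries. Their tissue comparisons are therefore a description.

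**Figure D1:**
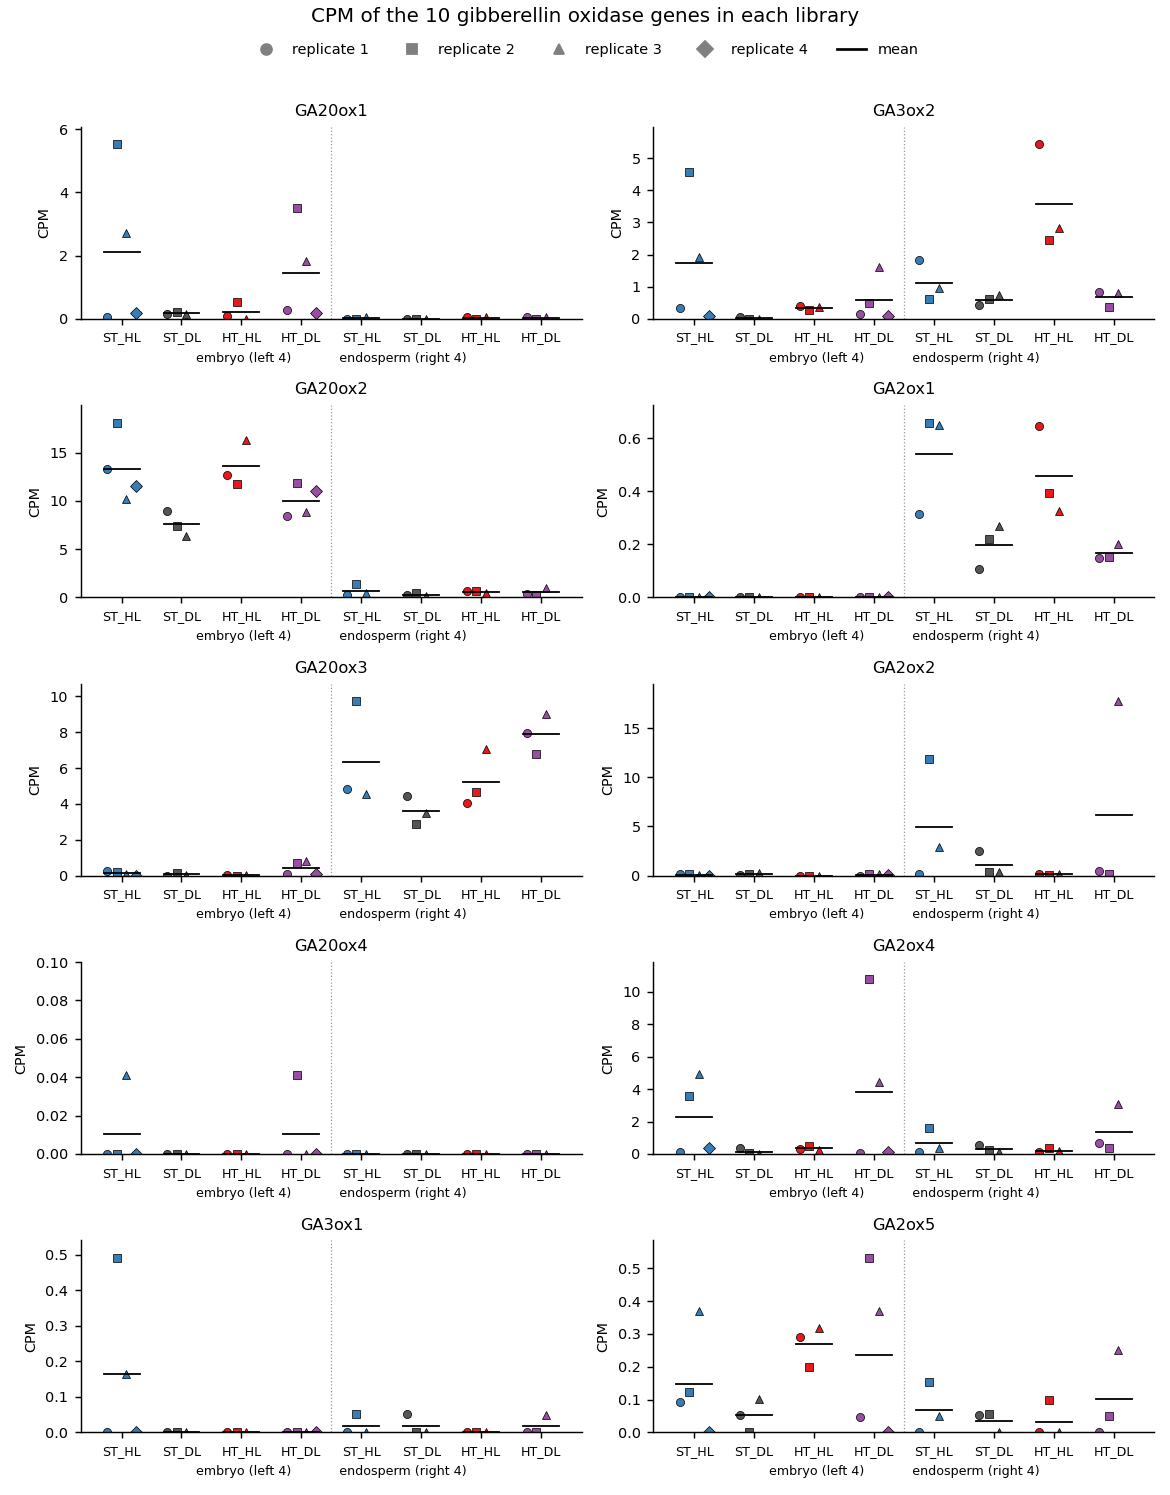
CPM of each of the 10 members (vertical axes, 1 scale per gene) in every library, by condition, with the 4 embryo groups left of the dotted line and the 4 endosperm groups right of it. Symbols mark the replicate number and the horizontal bars the group means. GA20ox2 lay between 6.41 and 18.1 CPM in the embryo and reached at most 1.32 in the endosperm, GA20ox3 and GA2ox1 showed the opposite division, and GA20ox1 and GA2ox4 in the embryo were high in replicates 2 and 3 of ST_HL and HT_DL.

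The GA 20-oxidases were divided between the tissues. GA20ox2 was higher in the embryo and GA20ox3 in the endosperm in all 4 conditions, and GA20ox1 was detected mainly in the embryo. Of the 7 members tested, 2 were higher and 3 lower in embryo than in endosperm in ST_HL, where 31.1% of all genes tested were called in either direction (past 1 on the log2 scale either way, with adjusted p under 0.05). The numbers were 1 and 3 in HT_HL (31.2% of all genes), 1 and 3 in ST_DL (29.6%) and 2 and 3 in HT_DL (32.2%). The median log2 fold change of the 7 members was 0.62 in ST_HL, -3.33 in HT_HL, -2.43 in ST_DL and -0.17 in HT_DL, and that of all genes lay between -0.01 and 0.07. With tissues processed as dissected pieces, fewer cells that express a gene and less RNA per cell cannot be told apart.

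GA20ox2 was found in every embryo library. Replicates 1 to 4 had 13.3, 18.1, 10.2 and 11.6 CPM in ST_HL embryo and 8.42, 11.8, 8.83 and 11.002 in HT_DL embryo. The ST_DL embryo replicates 1 to 3 had 8.99, 7.35 and 6.41 and those of HT_HL embryo 12.7, 11.7 and 16.3. The highest of the 12 endosperm libraries had 1.32, well below the lowest embryo library. Against endosperm, GA20ox2 in the embryo was higher by a log2 fold change of 4.32 (standard error, SE, of 0.45, edgeR quasi-likelihood adjusted p = 6.37e-08) in ST_HL, of 4.63 in HT_HL, 4.79 in ST_DL and 4.22 in HT_DL. Without the 4 libraries that stood apart it was 4.19 in ST_HL and 4.16 in HT_DL.

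GA20ox3 was the mirror image. Its endosperm replicates 1 to 3 had 4.80, 9.74 and 4.55 CPM in ST_HL, 4.45, 2.90 and 3.51 in ST_DL, 4.04, 4.67 and 7.04 in HT_HL, and 7.94, 6.79 and 9.04 in HT_DL. No embryo library exceeded 0.825, which was that of HT_DL embryo replicate 3, and HT_DL embryo replicate 2 had 0.696. All the other embryo libraries lay at or below 0.235. The log2 fold change of embryo against endosperm was -5.55 (SE 0.69, edgeR quasi-likelihood adjusted p = 7.37e-07) in ST_HL, -5.60 in ST_DL and -4.17 in HT_DL. GA20ox3 was kept for testing between tissues only through endosperm libraries, so these values are a description. In HT_HL the embryo had only 2 counts against 305 in the endosperm, a ratio of 186 between endosperm and embryo with an exact 95% interval from 51.0 to 1540.0 for counting error only.

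GA20ox1 was nearly absent from the endosperm, with 5 counts in 12 libraries. In the embryo, replicates 1 to 4 had 0.0469, 5.52, 2.72 and 0.181 CPM in ST_HL and 0.276, 3.52, 1.82 and 0.193 in HT_DL. Replicates 1 to 3 had 0.159, 0.206 and 0.153 in ST_DL embryo and 0.0827, 0.516 and 0 in HT_HL embryo. GA20ox1 was therefore high in exactly the 4 embryo libraries that stood apart and at or below 0.516 CPM elsewhere. It was called higher in embryo than in endosperm in ST_HL (206 against 1 count, adjusted p = 0.00436) and HT_DL (140 against 2 counts, adjusted p = 0.0111) by edgeR's quasi-likelihood test, and the ST_HL groups overlapped. GA20ox1 was kept for testing only through embryo libraries, mainly those that stood apart, so these adjusted p are a description. The ratio of the pooled CPM (summed counts over summed adjusted library sizes) was 131 in ST_HL, with an exact 95% interval from 23.3 to 5219. In HT_DL it was 46.1, with an interval from 12.5 to 385. Both intervals are for counting error only. GA20ox1 was not tested without the 4 libraries, and voom gave an adjusted p of 0.0595 in ST_HL, the highest of 13 alternatives, of which the lowest was 0.000397. GA20ox4 had 1 count in each of 2 embryo libraries and 0 counts in the 12 endosperm libraries, which allows up to 0.0128 CPM over the pooled endosperm libraries.

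The GA 2-oxidase GA2ox1 was also found mainly in the endosperm, and GA2ox2 was high in some endosperm libraries only. GA2ox1 had 0 counts in all 14 embryo libraries, which allows up to 0.00959 CPM over the pooled libraries at 3 counts, and 80 counts in the 12 endosperm libraries, every one of which held at least 2. It was called lower in the embryo in all 4 conditions by edgeR's quasi-likelihood test (adjusted p from 3.77e-05 in ST_HL to 0.00152 in ST_DL). GA2ox1 and GA2ox2 were kept for testing between tissues only through endosperm libraries, so their adjusted p are a description. Against the floor of 3 counts per group, the endosperm was at least 16.7-fold higher in ST_HL, at least 10.96-fold in HT_HL, at least 5.06-fold in HT_DL and at least 3.81-fold in ST_DL. GA2ox2 had at most 6 counts in any embryo library and 726 in all endosperm libraries together. Of the 12 endosperm libraries 4 had 10 counts or more, and the median was 6 counts. It was called lower in the embryo in ST_HL (log2 fold change -5.93, standard error 1.48, adjusted p = 0.00223, same test) and in HT_DL (log2 fold change -5.89, standard error 1.45, adjusted p = 0.00192). The HT_DL call rested on endosperm replicate 3. Without that library the log2 fold change was -1.56 and the adjusted p 0.332, and voom with all libraries gave -3.21 and 0.341. GA2ox2 was not called between tissues in HT_HL (log2 fold change -4.39, adjusted p = 0.229) or ST_DL (-2.43, adjusted p = 0.191) by edgeR's quasi-likelihood test.

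GA3ox2, which makes active gibberellin, differed between tissues in part of the conditions only. In HT_HL the 3 embryo libraries had 0.414, 0.278 and 0.362 CPM and the endosperm 5.44, 2.46 and 2.84, a log2 fold change of -3.33 for embryo against endosperm (SE 1.01, edgeR quasi-likelihood adjusted p = 0.00846). In ST_DL the embryo had 1 count in 3 libraries and the endosperm 33, and the call (adjusted p = 0.0133) was lost without embryo replicate 2 or 3 (adjusted p = 0.0516 for both). In ST_HL the log2 fold change was 0.62 with an adjusted p of 0.560, and in HT_DL it was -0.17 with an adjusted p of 0.885. These values depended on the libraries that stood apart. Without them GA3ox2 was lower in embryo than in endosperm in ST_HL (log2 fold change -2.41, adjusted p = 0.00360) and in HT_DL (log2 fold change -2.45, adjusted p = 0.00684). Of ST_HL and HT_DL embryo, only replicates 1 and 4 then remained. None of these libraries helped GA3ox2 past the filter on low counts, so the values from this smaller fit are a description.

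GA2ox4, which inactivates gibberellin, also changed direction with these libraries. With all libraries its log2 fold change for embryo against endosperm was 1.70 in ST_HL (adjusted p = 0.286 by edgeR's quasi-likelihood test) and 1.49 in HT_DL (adjusted p = 0.332). Without the 4 libraries it was -1.47 in ST_HL (adjusted p = 0.272) and -4.17 in HT_DL (adjusted p = 0.0124). ST_HL and HT_DL embryo then kept only replicates 1 and 4. None of these helped GA2ox4 past the filter on low counts, so the values without the 4 libraries are a description.

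In the endosperm, GA3ox2 was highest in the condition that joined heat and high light. Replicates 1 to 3 had 1.83, 0.609 and 0.9499 CPM in ST_HL, 0.419, 0.602 and 0.756 in ST_DL, 5.44, 2.46 and 2.84 in HT_HL, and 0.839, 0.352 and 0.804 in HT_DL. The HT_HL libraries lay above all other endosperm libraries, and the other 3 groups overlapped. HT_HL gave 3.58 ± 1.62 CPM (SD, n = 3) against 1.13 ± 0.629 (SD, n = 3) in ST_HL, a log2 fold change of 1.68 (SE 0.45, edgeR quasi-likelihood adjusted p = 0.0197), and GA3ox2 was the only 1 of 6 members called, where 5.85% of all genes were called. Under heat, dim light lowered it to 0.665 ± 0.272 CPM (SD, n = 3), a log2 fold change of -2.43 (SE 0.47, adjusted p = 0.00422, same test). It was again the only member called in this comparison (5.93% of all genes).

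The fall under dim light at high temperature was kept in all 12 alternatives, with log2 fold changes from -2.99 to -1.997. Under heat the direction was kept, but the call was lost without HT_HL replicate 1 (log2 fold change 1.24, adjusted p = 0.107), ST_HL replicate 2 (1.39, adjusted p = 0.0642) or ST_HL replicate 3 (1.58, adjusted p = 0.0767). At standard temperature dim light gave a log2 fold change of -0.92 with an adjusted p of 0.347. The interaction, that is the difference between the light effects at the 2 temperatures, was -1.51 on the log2 scale for GA3ox2 (SE 0.68, adjusted p = 0.196), so a difference between the temperatures was not shown.

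**Figure D2:**
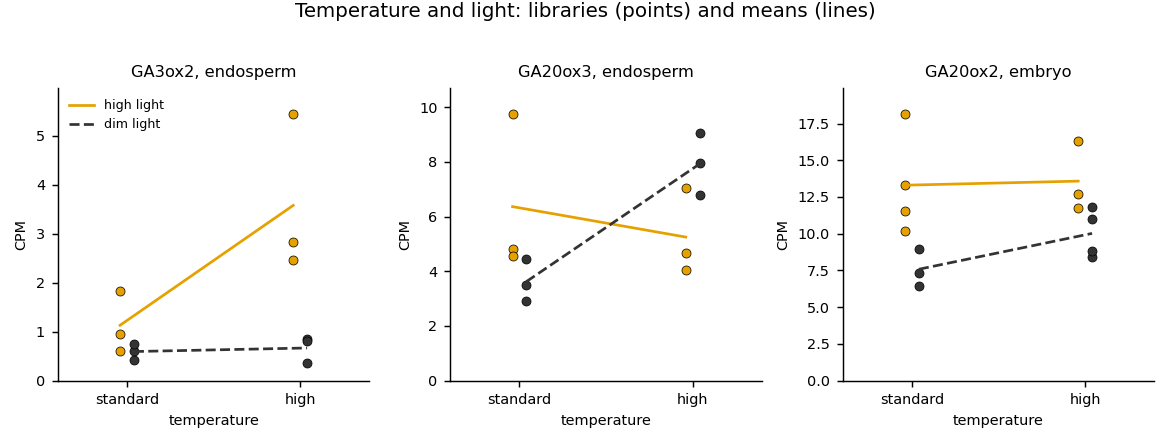
CPM at standard and high temperature for GA3ox2 and GA20ox3 in endosperm and GA20ox2 in embryo, in high light (yellow, solid lines) and dim light (dark, broken lines). Points are libraries and lines join the group means. In the endosperm, GA3ox2 had its highest mean, 3.58 CPM, in high light at high temperature, and GA20ox3 had its highest, 7.93, in dim light at high temperature. In the embryo, GA20ox2 had its lowest mean, 7.58, in dim light at standard temperature.

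GA20ox3, a GA 20-oxidase, in the endosperm was lowest in dim light at standard temperature, with 3.62 ± 0.783 CPM (SD, n = 3), and highest in dim light under heat, with 7.93 ± 1.13 (SD, n = 3). All HT_DL libraries lay above all ST_DL libraries, a log2 fold change of 1.12 (SE 0.32, edgeR quasi-likelihood adjusted p = 0.0399), and it was the only member called in HT_DL against ST_DL (4.01% of all genes). The fold change is close to the threshold, and leaving out any 1 of the 6 libraries lost the call, with log2 fold changes from 0.98 to 1.31 and adjusted p from 0.0525 to 0.152. ST_HL, with 6.36 ± 2.93 CPM (SD, n = 3), and HT_HL, with 5.25 ± 1.58 (SD, n = 3), lay in between, and each group overlapped with the next in the order HT_DL, ST_HL, HT_HL, ST_DL. Against ST_HL, ST_DL gave a log2 fold change of -0.81 (SE 0.32, adjusted p = 0.189), although its 3 libraries were below all ST_HL libraries. The interaction of light and temperature was 1.39 on the log2 scale (SE 0.44) with an adjusted p of 0.0892. DESeq2 and voom called it, with adjusted p of 0.0311 and 0.0232, and over 18 alternatives the adjusted p ran up to 0.199.

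GA2ox1, which inactivates gibberellin, had its lowest endosperm levels in both dim light groups. Replicates 1 to 3 had 0.313, 0.659 and 0.650 CPM in ST_HL and 0.648, 0.393 and 0.328 in HT_HL. They had 0.105, 0.219 and 0.270 in ST_DL and 0.148, 0.151 and 0.201 in HT_DL. The 6 dim light libraries thus lay below the 6 high light libraries, at 2 to 5 counts against 6 to 13 counts. How many of all genes separated in this way was not counted. GA2ox1 was kept for testing in the endosperm only through high light libraries, so its values here are a description. The log2 fold change was -1.44 (SE 0.49, adjusted p = 0.135) for ST_DL against ST_HL and -1.44 (SE 0.50, adjusted p = 0.0554) for HT_DL against HT_HL by edgeR's quasi-likelihood test. Neither was called, and voom called the second (adjusted p = 0.0372, with up to 0.218 over 12 alternatives). For HT_DL against ST_HL it was -1.67 (SE 0.49, adjusted p = 0.169).

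GA2ox2, also an inactivating enzyme, varied widely within conditions. Replicates 1 to 3 had 0.209, 11.8 and 2.90 CPM in ST_HL endosperm, 2.46, 0.328 and 0.324 in ST_DL, 0.150, 0.0983 and 0.109 in HT_HL, and 0.444, 0.151 and 17.7 in HT_DL. The 4 libraries above 1 CPM, ST_HL replicates 2 and 3, ST_DL replicate 1 and HT_DL replicate 3, came from 3 conditions. GA2ox2 was kept for testing in the endosperm only through these libraries, so its comparisons are a description. GA2ox2 was not called in any endosperm comparison by edgeR's quasi-likelihood test, with an adjusted p of 0.0754 for HT_HL against ST_HL (log2 fold change -5.31, standard error 2.01) and of 0.0625 for HT_DL against HT_HL (log2 fold change 5.58, standard error 2.00). DESeq2 called both, with adjusted p of 0.00874 and 0.00485, the lowest of 12 alternatives, the highest of which gave 0.245 and 0.687. Without HT_DL replicate 1 or 2 the second was called (adjusted p = 0.0423 and 0.0437). Within HT_HL all 3 libraries were at 2 or 3 counts.

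GA2ox4 in the endosperm was highest in the same HT_DL replicate 3, with 3.06 CPM, followed by ST_HL replicate 2 with 1.62. The other 10 endosperm libraries lay between 0.0997 and 0.691. HT_DL against HT_HL gave 2.69 on the log2 scale (SE 1.05, edgeR quasi-likelihood adjusted p = 0.0826). No HT_HL library helped GA2ox4 past the filter on low counts, so this comparison is a description. DESeq2 called GA2ox4 here (adjusted p = 0.0344), and over 13 alternatives the adjusted p ran up to 0.401. GA20ox2 in the endosperm was also highest in these libraries, with 1.32 CPM in ST_HL replicate 2 and 1.00 in HT_DL replicate 3 against 0.162 to 0.639 in the others.

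The 4 libraries with over 1 CPM of GA2ox2 also had the highest scores on the first principal component of the endosperm libraries, computed from 19179 genes without the members (39.9% of the variance). ST_HL replicates 2 and 3 had scores of 58.0 and 37.2, ST_DL replicate 1 had 61.5 and HT_DL replicate 3 had 66.0. The other 8 libraries lay between -68.4 and 6.43, with the 3 HT_HL libraries between -68.4 and -54.8. What this axis represents was not tested.

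**Figure D3:**
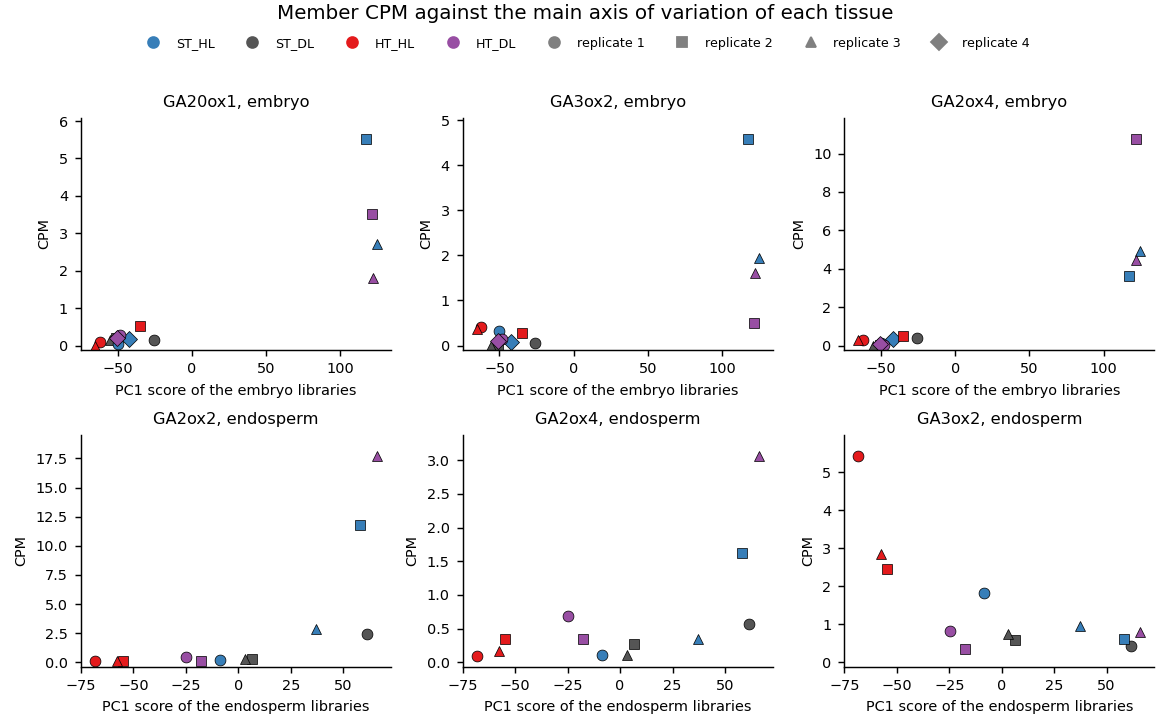
CPM of GA20ox1, GA3ox2 and GA2ox4 in embryo libraries (upper row) and of GA2ox2, GA2ox4 and GA3ox2 in endosperm libraries (lower row) against the score of each library on the first principal component of its tissue, which was computed without the 10 members. Colours give the condition and symbols the replicate number. In the embryo, the 4 libraries with scores from 117 to 125 hold the highest CPM of all 3 genes. In the endosperm, GA2ox2 exceeds 1 CPM only in the 4 libraries with scores of 37.2 and above, and GA3ox2 is highest in the 3 HT_HL libraries, at -54.8 and below.

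The remaining endosperm comparisons gave no call. Of 6 members, 0 were called in ST_DL against ST_HL (1.14% of all genes) and 0 in HT_DL against ST_HL (0.599%) by edgeR, DESeq2 and voom, with 2 and 1 members at an unadjusted p below 0.05 (18.9% and 11% of all genes by edgeR). DESeq2 gave no adjusted p, and so no verdict, for GA2ox1 and GA20ox2 in these comparisons or for the interaction. The same held for GA2ox4 in ST_DL against ST_HL. For the interaction in the endosperm, 0 of 6 were called by edgeR (2.06% of all genes) with 4 at an unadjusted p below 0.05 (24.8% of all genes), 2 by DESeq2 and 1 by voom. All these shares are edgeR's, and those by DESeq2 and voom were not counted. The median log2 fold change of the 6 members was -0.27 in HT_HL against ST_HL, -1.19 in ST_DL against ST_HL and -0.02 in HT_DL against ST_HL, and that of all genes lay within 0.02 of 0 in each. All 6 members were lower in ST_DL than in ST_HL by their fitted values. No ST_DL library helped GA2ox1 or GA20ox2 past the filter on low counts (at most 5 and 7 counts). GA2ox2 and GA2ox4 passed it through a few high libraries. The direction of the 6 and the medians are therefore a description, and the share of all genes lower in ST_DL was not counted. HT_HL, ST_DL and HT_DL were compared with the same ST_HL libraries.

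**Figure D4:**
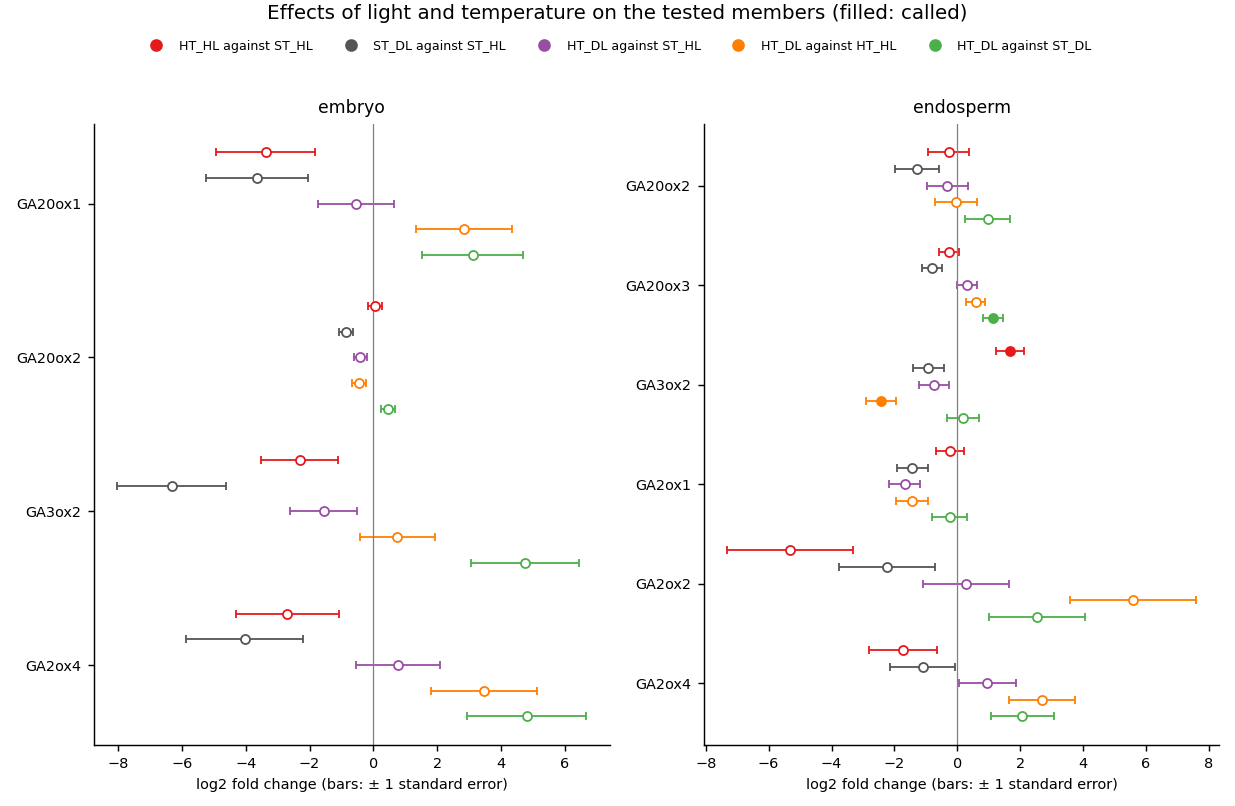
Log2 fold changes with bars of ± 1 standard error for the 4 members tested in embryo and the 6 tested in endosperm, for the 5 comparisons between conditions. Filled points were called (adjusted p under 0.05, past 1 on the log2 scale). Filled points are GA3ox2 at 1.68 and -2.43 and GA20ox3 at 1.12, all in endosperm, and the widest bars belong to GA20ox1, GA3ox2 and GA2ox4 in embryo and GA2ox2 in endosperm.

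In the embryo, 0 of 4 members were called in any comparison between conditions by edgeR's quasi-likelihood test. All genes gave 4.84% called in HT_HL against ST_HL, 0.587% in ST_DL against ST_HL, 0% in HT_DL against ST_HL, 3.85% in HT_DL against HT_HL, 1.23% in HT_DL against ST_DL and 1.76% for the interaction of light and temperature. At an unadjusted p below 0.05 the members numbered 1, 4, 0, 0, 2 and 3 in this order, where all genes gave 37.5%, 23.8%, 5.21%, 35.0%, 26.0% and 33.9%. GA20ox1, GA3ox2 and GA2ox4 were kept for testing mainly through the ST_HL and HT_DL libraries that stood apart, so these numbers are a description. DESeq2 called 1 member in ST_DL against ST_HL, 2 in HT_DL against ST_DL and 3 for the interaction and 0 in the other comparisons, and voom called 0 in all 6. In HT_DL against ST_HL, DESeq2 gave no adjusted p for GA20ox1, GA3ox2 and GA2ox4, and so no verdict on them. The percentages above are edgeR's. Shares of all genes by DESeq2 and voom were not counted, so their member counts have no share to be read against.

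GA20ox2, at 126 counts or more in every embryo library, had its lowest values in dim light at standard temperature. ST_HL gave 13.3 ± 3.46 CPM (SD, n = 4) and ST_DL 7.58 ± 1.31 (SD, n = 3), and all ST_DL libraries lay below all ST_HL libraries. The log2 fold change was -0.86 (SE 0.22), with an edgeR quasi-likelihood adjusted p of 0.0677 and a size under the fold threshold, so it was not called. Across 14 alternatives it lay between -0.98 and -0.65 with adjusted p from 0.00601 to 0.224, and without the 4 libraries that stood apart it was -0.72. HT_HL had 13.6 ± 2.39 CPM (SD, n = 3) and HT_DL 10.0 ± 1.66 (SD, n = 4), and in the order HT_HL, ST_HL, HT_DL, ST_DL each group overlapped with its neighbours.

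GA3ox2 in the embryo ranged from 0 to 4.58 CPM. Replicates 1 to 4 had 0.328, 4.58, 1.93 and 0.0903 in ST_HL and 0.138, 0.491, 1.61 and 0.0965 in HT_DL, and replicates 1 to 3 had 0.0529, 0 and 0 in ST_DL. The HT_HL libraries had 0.414, 0.278 and 0.362, so HT_DL replicate 2, which stood apart, lay only a little above them. ST_DL, with 1 count in 3 libraries, lay below ST_HL, with 168 counts in 4. The ratio of the pooled CPM was 106 with an exact 95% interval from 18.7 to 4202 for counting error only. The spread between replicates was wide, and the adjusted p was 0.0735 by edgeR's quasi-likelihood test and 0.00281 by DESeq2, the lowest of 13 alternatives, of which the highest gave 0.234. No ST_DL library helped GA3ox2 past the filter on low counts, so this comparison is a description. The 2 ST_HL libraries that did not stand apart had 7 and 2 counts, and GA3ox2 was not tested in the embryo without the others.

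GA2ox4 in the embryo had 0.141, 3.60, 4.94 and 0.361 CPM in replicates 1 to 4 of ST_HL and 0.0460, 10.8, 4.46 and 0.0965 in those of HT_DL. In the other embryo groups, replicates 1 to 3 had 0.370, 0.0514 and 0 in ST_DL and 0.290, 0.476 and 0.271 in HT_HL. The 4 libraries that stood apart thus had at least 3.60 CPM and the other 10 at most 0.476. GA20ox1, GA3ox2 and GA2ox4, which stand for synthesis of precursors, activation and inactivation, were all highest in these 4 libraries of 14, for GA3ox2 by a small margin. GA20ox2 did not separate them, since ST_HL replicate 3 had the lowest value of its group. GA20ox3 in the embryo was above 0.235 CPM only in HT_DL replicates 2 and 3, and GA3ox1 had counts in the embryo only in ST_HL replicates 2 and 3, with 12 and 4.

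The interaction of light and temperature in the embryo set the conditions with such libraries (ST_HL and HT_DL) against those without (ST_DL and HT_HL). GA20ox1, GA3ox2 and GA2ox4 were kept for testing mainly through libraries of the first pair of conditions, so their values are a description. Their highest counts in HT_HL, 13, 10 and 12, also reached the minimum count of 10. The log2 values of the interaction were 6.49 for GA20ox1 (adjusted p = 0.0705), 7.06 for GA3ox2 (adjusted p = 0.0559) and 7.51 for GA2ox4 (adjusted p = 0.0657) by edgeR's quasi-likelihood test, and DESeq2 called all 3 (adjusted p from 0.00488 to 0.00995), while voom gave 0.205 to 0.304. With the replicate number as a block, the adjusted p was 0.0122 for GA20ox1, 0.0170 for GA3ox2 and 0.0470 for GA2ox4. In ST_HL and HT_DL the libraries that stood apart hold the same numbers, so this block cannot be told from that split. All 3 were also called without replicate 1 of ST_HL (adjusted p from 0.0381 to 0.0449) or of HT_DL (0.0353 to 0.0494). GA3ox2 was called without replicate 4 of ST_HL (0.0425), and GA3ox2 and GA2ox4 without replicate 4 of HT_DL (0.0389 and 0.0404). Without the 4 libraries none of the 3 passed the filter on low counts.

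Whether a condition acted differently in the tissues was tested for 7 members, and 0 were called by edgeR, DESeq2 and voom for the effect of HT_HL (0.789% of all genes by edgeR), ST_DL (0.0331%) or HT_DL (0.00945%) against ST_HL. DESeq2 gave GA2ox1 no adjusted p for HT_HL or ST_DL, and so no verdict on it there. At an unadjusted p below 0.05, edgeR gave GA3ox2 for HT_HL (16.8% of all genes) and for ST_DL (8.71%) and no member for HT_DL (4.01%). For GA3ox2 the effect of HT_HL in embryo minus that in endosperm was -3.95 on the log2 scale (SE 1.33, adjusted p = 0.131) and -0.91 (adjusted p = 0.628) without the 4 embryo libraries.

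GA2ox4 and GA2ox5 were not measured independently. Their deposited counts were not whole in 12 of 26 libraries each, while the sum of both was whole in all 26 libraries within 0.01, and the other 8 members had whole counts throughout. Reads were thus divided between these 2 genes by the counting and with no other gene. GA2ox5 took 3.39% and 7.13% of the sum in ST_HL embryo replicates 2 and 3 and 4.81% and 7.95% in HT_DL embryo replicates 2 and 3, where the sum was between 91 and 276. In HT_HL embryo it took 49.9%, 29.4% and 54.5% of sums of 14, 17 and 13. GA2ox5 itself had 0.290, 0.198 and 0.317 CPM in HT_HL embryo and at most 0.102 in ST_DL embryo, and the filter on low counts left it out. With the reads of both summed, the log2 fold change of GA2ox4 for the interaction in the embryo was 6.43 (adjusted p = 0.0735), and none of its other values crossed the threshold.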

How the data were processed

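The authors checked the reads with FastQC, mapped them with Salmon 0.14.1 (quasi-mapping, sequence bias correction, index of k-mers of length 31) on the SL4.0 transcripts with ITAG4.0 annotation, and deposited the resulting expected counts per transcript without scaling, in which reads shared by alike transcripts are split. The values, of which 10.5% were not whole, were rounded. Models with a term for every condition were fitted per tissue with edgeR 4.0.16 in R 4.3.3 (TMM, filterByExpr with a minimum count of 10 and total of 15, quasi-likelihood F-test), covering 19253 genes in embryo and 19185 in endosperm. A fit of all 26 libraries covered 21153. A call needed a Benjamini-Hochberg adjusted p under 0.05 over all genes tested and a log2 fold change past 1 either way. The standard error is the log2 fold change divided by the square root of F. CPM use the TMM factors of all libraries. Principal components use log2 CPM (prior count 2).

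Tried as well were DESeq2 1.42.0, limma 3.58.1 voom with quality weights, RLE normalization, no filter, no fold threshold, a replicate block, leaving out each library, and leaving out the 4 embryo libraries that stand apart. Summing GA2ox4 and GA2ox5 was added after seeing the data. The fits were tested on simulated data. The rule for pairing was that deviations over genes correlated above 0.1 in every pair of the same number. It was met in ST_HL and HT_DL embryo (r from 0.751 to 0.833 in 4 pairs), in ST_HL embryo and endosperm (0.102 to 0.437) and in HT_HL embryo and endosperm (0.129 to 0.346), and not elsewhere. Replicates 2 and 3 stood apart in both ST_HL and HT_DL embryo, so r there cannot tell a pairing from that split. The members and lists were chosen with earlier results of these data known. All 10 members are named, with the 2 genes most alike (Pearson r of log2 CPM) for each of the 2 members of highest mean CPM. A list of other gibberellin genes was not used here, because the sources used here, which hold the study's annotation tables only in part, pair its identifiers with no names.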

Additional observations from a re-analysis of the deposited data

Results flagged for a closer look

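In the groups of 4 libraries, the members' CPM were searched for a single library far from the other 3, in 17 groups, where chance gives about 0.85 flags. Both flags were GA20ox4, with 0.0412 CPM in ST_HL embryo replicate 3 and 0.0409 in HT_DL embryo replicate 2, against 0 in the other 3 libraries of each group. Each value is 1 count and lies under the floor of 3 counts. Both libraries are among the 4 embryo libraries that stand apart.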

How the results depend on the processing

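Of the 21 values called for members, 14 stayed called in every alternative run for them, and 10 of the 19 counts of called members stayed within 1.5 times. DESeq2 called 1 member in ST_DL against ST_HL, 2 in HT_DL against ST_DL and 3 for the interaction in embryo, and 2 in HT_HL against ST_HL, 3 in HT_DL against HT_HL and 2 for the interaction in endosperm. Voom with quality weights called 2 in HT_DL against HT_HL and 1 for the interaction in endosperm. Shares of all genes called in the alternative runs were not counted, so these numbers describe the members only. The replicate block called 1 member in each of HT_HL against ST_HL, ST_DL against ST_HL, HT_DL against HT_HL and HT_DL against ST_DL and 3 for the interaction in embryo, and 0 in HT_DL against ST_DL in endosperm. It also lost GA2ox1 between tissues in ST_DL (adjusted p = 0.0877) and HT_DL (0.0826). Between conditions, the libraries share only a number as far as the labels say. ST_HL and HT_DL embryo, both part of the interaction, had correlated deviations, but their numbers 2 and 3 also mark the libraries that stand apart. Embryo and endosperm libraries of the same number may come from the same seeds, which the labels do not say. Deviations of such pairs correlated at 0.0509 to 0.168 in ST_DL and at -0.357 to 0.432 in HT_DL. In the comparisons made only of groups that met the rule for pairing the block changed no call. Leaving out 1 library gave 0 to 3 members for the interaction in embryo (3 without replicate 1 of ST_HL or HT_DL), 0 to 1 in HT_HL against ST_HL, 1 to 2 in HT_DL against HT_HL and 0 in HT_DL against ST_DL in endosperm.

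Signs were followed for member values with an unadjusted p below 0.05 by edgeR. They were also followed for GA3ox2 and GA2ox4 between tissues in ST_HL and HT_DL. Changes of sign among the other values were not counted, but some occurred. The effect of HT_HL on GA2ox4 in embryo minus that in endosperm went from -0.95 to 2.24 without the 4 embryo libraries that stand apart. Of the values followed, 4 changed sign, in 9 cases of a value under an alternative, all between embryo and endosperm. GA3ox2 in ST_HL was -1.82 on the log2 scale with voom, -2.41 without the 4 embryo libraries that stand apart and, without 1 library, between -0.49 (ST_HL embryo replicate 2) and 1.15. In HT_DL it was 0.15 or 0.17 without embryo replicate 1 or 4 and 0.049 without endosperm replicate 1, within a range from -1.39 to 0.17 over single libraries left out. GA2ox4 in HT_DL was -1.04 with voom and -4.17 without the 4 libraries, and in ST_HL -1.47 without them. With the 4 libraries left out, fewer libraries entered the fit. The cause of the other changes was not tested. GA20ox4, GA3ox1 and GA2ox5 were left out by the filter on low counts, and without it none of their values was called.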

Other observations

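Among the genes tested in all 26 libraries, those most like GA20ox2 in log2 CPM were Solyc04g080490.4.1 and Solyc11g042880.3.1 (Pearson r of 0.97 for both). Those most like GA20ox3 were Solyc02g091700.3.1 and Solyc05g005490.4.1 (0.98 for both). These values are across libraries that share a large difference between tissues, and they describe likeness of level only.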
